A study of Mus musculus with 1 sample.

Results

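The members, 6 of the 32285 genes in the matrix, were chosen by symbol for this description: Prss34, Mcpt8, Cpa3, Gzmb, Cma1 and Tpsb2, which encode proteases stored in the granules of basophils and mast cells. They were described in cells with a UMI of Fcer1a, the ligand-binding chain of the high-affinity IgE receptor, and in cells with a UMI of Gata2, a transcription factor of blood stem cells and of the basophil and mast cell lineages. The data were 1 droplet single-cell RNA-seq library of lineage-negative, cKit+ (LK) bone marrow cells, which comprise the stem and progenitor compartment of blood. Unique molecular identifiers (UMIs) were counted, so that copies of 1 captured transcript count once.

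The cells carried Brd9fl/fl alleles without the Mx1-Cre deletion, on the C57BL/6 strain, and therefore kept Brd9. Mice had received polyinosinic-polycytidylic acid (pIpC), an inducer of interferon, as 3 doses of 20 mg/kg, and cells were taken 8 weeks later. The labels describe CD45.2(+) donor marrow in CD45.1(+) CD45.2(-) recipients treated 4 weeks after transplant, while the study's methods speak of control mice and name no transplant for this library, and which applies was not settled. The number of mice and their age are not given for this library in the sources used here, and no replicate exists, so no test was run and every interval below is an exact 95% interval for counting error only.

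Basophils and mast cells both carry the high-affinity IgE receptor and release stored mediators when it is cross-linked. Their granules hold serine proteases and carboxypeptidase A3, bound to proteoglycan until release. In the mouse, Mcpt8 and Prss34 are known as basophil proteases, Cma1 and Tpsb2 as mast cell chymase and tryptase, and Cpa3 is used by both cell types and early progenitors.

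The 6 proteases fell into 3 groups by abundance. Prss34, Mcpt8 and Cpa3 were abundant, Gzmb and Cma1 were confined to few cells, and Tpsb2 had no UMI. Of 8817 deposited barcodes, 7645 passed the study's cell filter, with a median of 18696 UMIs per cell and 151852381 UMIs in all. Levels are given as CPM, the UMIs of a gene per 1000000 UMIs of the summed cells.

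Prss34 (ENSMUSG00000056399, chr17:25298394-25300165, plus strand, GRCm38) encodes mouse mast cell protease 11, a tryptase. It had 100545 UMIs, or 662 CPM (658 to 666), in 1409 of 7645 cells (18.4%). Mcpt8 (ENSMUSG00000022157, chr14:56082166-56085273, minus strand), a serine protease used as a basophil marker, had 59422 UMIs, or 391 CPM (388 to 394), in 1890 cells (24.7%). Cpa3 (ENSMUSG00000001865, chr3:20215620-20242181, minus strand), the carboxypeptidase, had 20905 UMIs, or 138 CPM (136 to 140), in 1495 cells (19.6%). The annotation places the microRNA genes Mir6949 within Mcpt8 and Mir7007 within Cpa3 on the same strand.

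Gzmb (ENSMUSG00000015437, chr14:56258838-56262260, minus strand) encodes granzyme B, a serine protease best known from cytotoxic lymphocytes. Its 325 UMIs (2.14 CPM, 1.91 to 2.39) lay in 66 cells, and the 10 cells with most held 207 of them. Cma1 (ENSMUSG00000022225, chr14:55941451-55944675, minus strand), the chymase, had 96 UMIs (0.632 CPM, 0.512 to 0.772) in 11 cells, of which 1 cell held 57. Tpsb2 (ENSMUSG00000033825, chr17:25366305-25369098, plus strand), the tryptase known as mouse mast cell protease 6, had 0 UMIs in the 7645 cells and 0 in all 8817 barcodes. That count allows a level of up to 0.0198 CPM. Tpsab1, a close relative of Tpsb2, also had 0 UMIs, and a read that maps to more than 1 gene is not counted by Cell Ranger by default, so a transcript common to both could be missing from each.

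Prss34 and Tpsb2 lie on chromosome 17 with 66.14 kb between them. Cma1, Mcpt8 and Gzmb lie on chromosome 14 within 1 locus of chymase and granzyme genes, with 137 kb from Cma1 to Mcpt8 and 174 kb from Mcpt8 to Gzmb. The members with the most UMIs and with 0 UMIs thus lay in the same region of chromosome 17.

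Because Gata2 belongs to the factors that bind GATA motifs, the stretches before the starts of the 3 abundant members were searched for AGATAA on both strands (TTATCT on the other strand), a motif chosen after these sequences had been seen. Each stretch below is 150 bases of the RefSeq table for GRCm38.p6, written 5′ to 3′ on the strand of the gene, with matches in capitals. For Prss34 it is chr17:25298244-25298393 (plus strand) and for Cpa3 chr3:20242182-20242331 (minus strand), both ending at the base before the start. For Mcpt8 it is chr14:56085274-56085423 (minus strand), which ends before the earlier start that GENCODE gives, 76 bases upstream of the RefSeq start.
Prss34: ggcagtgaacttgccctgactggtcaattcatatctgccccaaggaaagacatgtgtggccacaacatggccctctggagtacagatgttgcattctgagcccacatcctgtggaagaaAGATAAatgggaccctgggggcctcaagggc
Cpa3: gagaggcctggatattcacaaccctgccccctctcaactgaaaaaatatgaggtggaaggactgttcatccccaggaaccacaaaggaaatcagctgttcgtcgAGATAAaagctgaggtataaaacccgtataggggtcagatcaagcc
Mcpt8: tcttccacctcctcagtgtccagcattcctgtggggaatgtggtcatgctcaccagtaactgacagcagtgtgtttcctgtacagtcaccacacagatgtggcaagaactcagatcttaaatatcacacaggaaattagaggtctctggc
The match began 31 bases before the start in Prss34 and 46 bases before it in Cpa3. The full 250 bases upstream of Mcpt8, Gzmb and Cma1 held no match, and those of Fcer1a held 1 on the other strand, 92 bases before the start. Among 32851 promoters of the table, 3281 (9.99%) held the motif in the same 250 bases. Promoters of 5 of the 6 members were in the table, Tpsb2 being the other. A match is a run of letters and no evidence of binding.

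Fcer1a-positive cells made up 663 of 7645 (8.67%), with a median of 14103 UMIs against 19139 in the Fcer1a-negative cells. Scrublet called 8.14% of them doublets, against 3.07% of the Fcer1a-negative cells, and the part of doublets in the values below was not tested beyond leaving the calls out. With 50 UMIs required over both sides, 5 of the 6 proteases were measured and all 5 were at least 4-fold higher in Fcer1a-positive cells, where 1.44% of 13477 genes passed the same limit. Tpsb2 was not measured.

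Prss34 was at 9139.8 CPM in Fcer1a-positive and 8.01 CPM in Fcer1a-negative cells, a fold of 1141 (1076 to 1211). Mcpt8 was at 5224 against 18.4 CPM, 283-fold (273 to 295). Cpa3 was at 1495 against 32.9 CPM, 45.4-fold (43.9 to 46.9). Thinning both gate and levels to 5000 UMIs per cell gave Mcpt8 465-fold. Of all Cpa3 UMIs 22.2% were in Fcer1a-negative cells, against 1.12% for Prss34 and 4.37% for Mcpt8.

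For the rare members the folds rested on few cells. Gzmb was at 24.8 against 0.390 CPM, 63.6-fold (47.5 to 86.7), and at 29.8-fold without the 10 cells that held most of it. Cma1 was at 8.46 CPM from 9 cells against 0.0284 CPM from 2 cells, 298-fold (113 to 1117), which was 97.8-fold under the stricter cell filter and had 1 UMI left without its 10 highest cells.

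Within single Fcer1a-positive cells the amounts spread widely. Prss34 UMIs had a lower quartile of 0, a median of 6, an upper quartile of 281 and a maximum of 928, which was up to 7.45% of all UMIs of a cell. Mcpt8 had a median of 17, an upper quartile of 163 and a maximum of 509. Cpa3 was more even, with quartiles of 2 and 40 around a median of 19 and a maximum of 115. Together the 6 proteases reached 12.1% of the UMIs of 1 cell. The gap between the median and the upper quartile of Prss34 shows that cells with few and cells with many UMIs were pooled under the same gate.

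The amount of Fcer1a separated these cells. Cells were divided into 167 with 1 Fcer1a UMI, 176 with 2 to 9, and 320 with 10 or more, whose median depths were 17007, 14148 and 12854 UMIs. Prss34 was at 84.8, 1111 and 20317.5 CPM in the 3 strata, and Mcpt8 at 73.9, 885 and 11443.8 CPM. Cpa3 went from 150 to 798 and 2854 CPM, a narrower span. The deepest cells were in the lowest stratum, so depth ran opposite to the protease levels.

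Detection differed between the 3 members. With every cell thinned to 5000 UMIs, Cpa3 was found in 73.8% of the cells with 2 to 9 Fcer1a UMIs, Mcpt8 in 42.3% and Prss34 in 32.1%, and as deposited in 86.4%, 52.8% and 42.0%. With 10 or more Fcer1a UMIs the thinned shares were 98.7%, 94.3% and 91.2%. With 1 Fcer1a UMI they were 21.7%, 15.1% and 10.8%. In erythroid-like cells, which should lack these proteases, the thinned shares were 1.68%, 3.27% and 3.71%, from a median depth of 33475 UMIs before thinning. Cpa3 was thus the member found in most cells at low and middle Fcer1a levels, and all 3 were near complete at high levels.

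**Figure D1:**
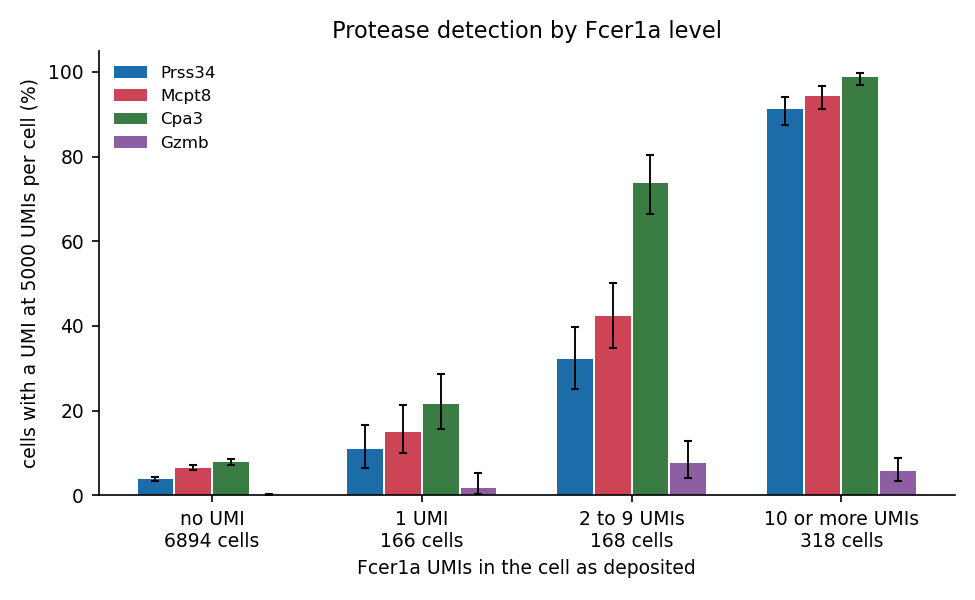
Share of cells with a UMI of each protease (percent, vertical axis, from 0) after thinning each cell to 5000 UMIs, by the number of Fcer1a UMIs in the cell (horizontal axis). Bars are shares with exact 95% intervals, and in the 2 to 9 UMI stratum the Cpa3 bar (73.8%) stands above those of Mcpt8 (42.3%) and Prss34 (32.1%).

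The levels of Gzmb and Cma1 rested on a few cells of the middle stratum. Gzmb was at 7.91, 64.6 and 12.5 CPM in the strata with 1, 2 to 9, and 10 or more Fcer1a UMIs, but 3 cells held 47, 41 and 38 of the 185 UMIs in the middle one. The share of cells with Gzmb was 2.40%, 7.95% and 8.44% as deposited, and 1.81%, 7.74% and 5.66% thinned. Cma1 was at 0, 28.3 and 2.33 CPM in the same strata, with 57 of the 81 UMIs of the middle one in 1 cell. It was found in 0, 5 and 4 cells, too few to order the strata.

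Co-detection was common. At least 2 of the 6 proteases were found in 455 of 663 Fcer1a-positive cells (68.6%, 64.9 to 72.1), and in 61.5% once the same cells were thinned. In Fcer1a-negative cells the shares were 8.31% and 1.61%, and in erythroid-like cells 5.90% and 0.265%. Gating at 2 Fcer1a UMIs raised the share to 83.5%.

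For the 3 abundant members, 374 of the 663 cells (56.4%) held all of them. Cpa3 alone was found in 94 cells, Mcpt8 with Cpa3 but no Prss34 in 49, Mcpt8 alone in 23, Prss34 with Cpa3 in 16, Prss34 alone in 12 and Prss34 with Mcpt8 but no Cpa3 in 8. None of the 3 was found in 87 cells. Combinations that held Prss34 without Mcpt8 made up 28 of the 410 Prss34-positive cells, so most Prss34-positive cells (93.2%) also held Mcpt8. Seen from the other side, Prss34 was found in 84.1% of Mcpt8-positive cells (80.4 to 87.4) and in 13.4% of Mcpt8-negative cells (9.09 to 18.8). After thinning the same shares were 86.1% and 8.20%.

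**Figure D2:**
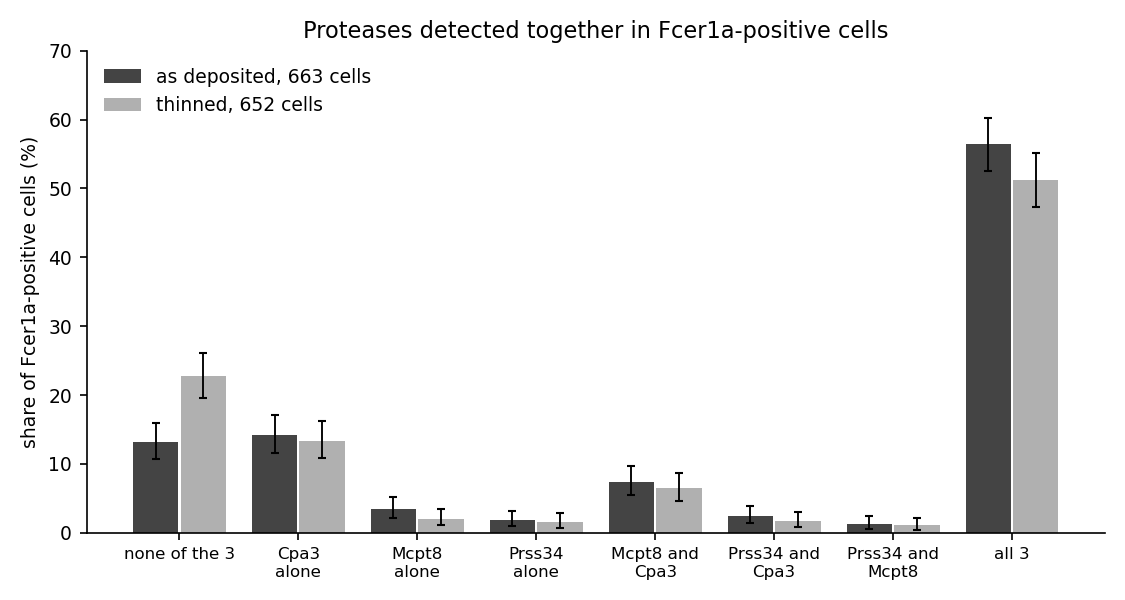
Share of Fcer1a-positive cells (percent, vertical axis, from 0) with each combination of Prss34, Mcpt8 and Cpa3, as deposited (663 cells, dark bars) and after thinning to 5000 UMIs (652 cells, light bars), with exact 95% intervals. The bar for all 3 is the tallest, at 56.4% as deposited and 51.2% thinned.

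Erythroid-like cells gave a reference for detection without such pairing. There Prss34 was found in 24.1% of Mcpt8-positive and 22.6% of Mcpt8-negative cells. In Fcer1a-negative cells as a whole the shares were 16.2% and 13.8%. In Fcer1a-positive cells, as given above, they were 84.1% and 13.4%.

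Amounts also moved together in Fcer1a-positive cells. On log2(1 + UMIs) over 652 cells thinned to the same depth, Pearson's r was 0.95 between Prss34 and Mcpt8, 0.79 between Prss34 and Cpa3, and 0.83 between Mcpt8 and Cpa3. With Fcer1a the values were 0.83 for Prss34, 0.84 for Mcpt8 and 0.80 for Cpa3, and with Gata2 they were 0.53, 0.57 and 0.60. With Kit, the receptor the cells were sorted on, they were -0.32, -0.29 and -0.21. All points come from 1 library, cells are not replicates, and the values describe these cells alone.

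**Figure D3:**
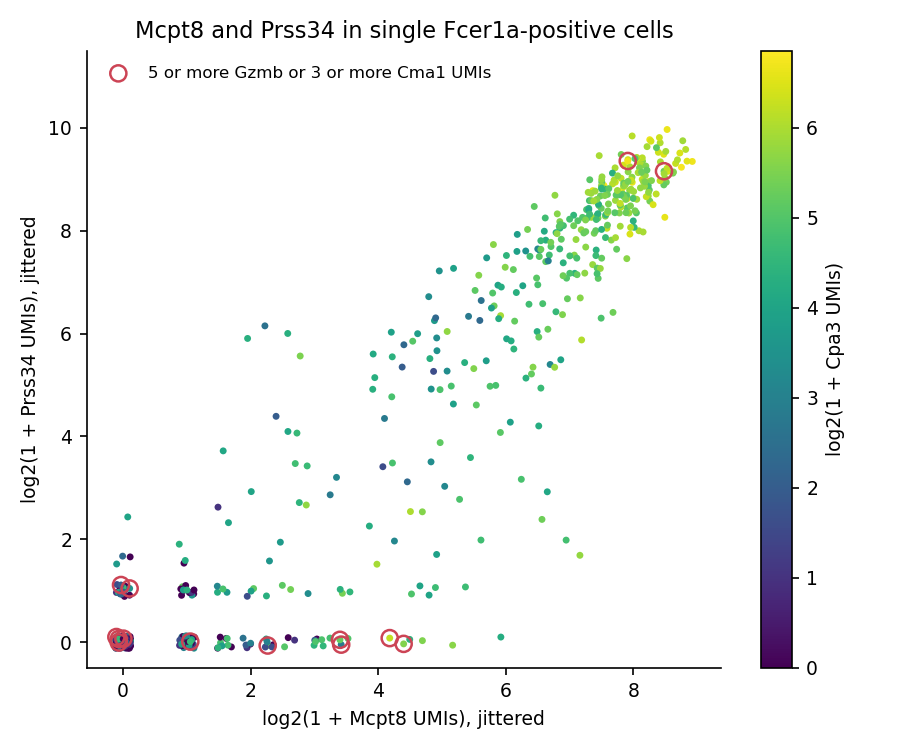
Each point is 1 of the 663 Fcer1a-positive cells, with log2(1 + Mcpt8 UMIs) on the horizontal and log2(1 + Prss34 UMIs) on the vertical axis, jittered by up to 0.12, and coloured by log2(1 + Cpa3 UMIs). Circles mark the 14 cells with 5 or more Gzmb or 3 or more Cma1 UMIs, of which 10 had no Prss34 UMI, 2 had 1 and 2 lay among the cells with most Prss34.

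The 3 most frequent combinations that contain Cpa3 differed in other genes. They also differed in class. With Cpa3 alone, Mcpt8 with Cpa3, and all 3, basophil or mast cell-like cells were 37 of 94, 24 of 49 and 323 of 374. Megakaryocyte-like cells were 31, 5 and 5 of the same cells. The part of class in the levels that follow was not tested. From Cpa3 alone, to Mcpt8 with Cpa3, to all 3, Ms4a2, the beta chain of the IgE receptor, was at 248, 364 and 811 CPM. Cd200r3, a receptor of basophils and mast cells, was at 3.14, 15.6 and 170 CPM over the same steps, and Hdc, which makes histamine, at 123, 219 and 414 CPM. Cebpa, a myeloid transcription factor, was at 71.7, 88.5 and 227 CPM. Kit was at 135, 173 and 54.0 CPM, lowest where all 3 proteases were found. The levels of the rare proteases were lowest in the last group too, with Gzmb at 57.2, 135 and 9.46 CPM and Cma1 at 7.54, 90.9 and 0.727 CPM. These levels came from few cells, 8, 6 and 29 for Gzmb (8.51%, 12.2% and 7.75%) and 2, 3 and 4 for Cma1. Prg2, the eosinophil major basic protein, was at 581, 4740 and 1423 CPM, from 10 of 94, 12 of 49 and 30 of 374 cells, and 7 of the 49 cells with Mcpt8 and Cpa3 were eosinophil-like by their markers.

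Cells with none of the 3 were mixed in class: of the 87, 35 were megakaryocyte-like, 10 HSC-like, 10 monocyte-like and 9 erythroid-like. Over the 87, Pf4, a platelet chemokine, was at 959 CPM, against 422 CPM in the cells with Cpa3 alone. Ms4a2 was at 3.70 CPM over the 87, and their median Fcer1a count was 1 UMI.

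Over all Fcer1a-positive cells, those with a UMI of Gzmb held more Prss34 than those without. Prss34 was at 24484 CPM in the 45 with Gzmb (68.9% of cells) and at 8419 CPM in the 618 without (61.3%). With and without Cma1 it was at 8971 CPM (9 cells) and 9142 CPM (654 cells). The cells without Gzmb pool several classes, whereas 42 of the 45 with it were basophil or mast cell-like. Within that class, Fcer1a-negative cells included, detection went the other way. Prss34 was found there in 64.6% of 48 Gzmb-positive and 84.4% of 360 Gzmb-negative cells, and after thinning in 55.3% and 80.3%. The cells with the most Gzmb were different from the rest. Among the 10 cells with most Gzmb UMIs (7 to 47), Prss34 had no UMI in 8 and 1 UMI in the other two. Each of the 10 had Gata2, with 3 to 15 UMIs, and Kit, with 1 to 11 UMIs, and all but 1 had Cpa3, with up to 74 UMIs. In the 56 other Gzmb-positive cells the median Prss34 count was 35 UMIs. These 10 cells were picked by their Gzmb counts alone, and 2 further cells, with 7 Gzmb UMIs like the last of the 10, had 0 and 1 Prss34 UMI.

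For Cma1, 6 cells had 3 or more UMIs and held 91 of the 96. None of these 6 had a Prss34 UMI, all 6 had Kit (5 to 14 UMIs), Cpa3 (2 to 74 UMIs) and Gata2 (2 to 15 UMIs), and 5 had Gzmb. The 5 other Cma1-positive cells had 1 Cma1 UMI each, and 4 of them held 171 to 412 Prss34 UMIs. The limit of 3 UMIs was set after these counts had been seen.

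In Fcer1a-positive cells Gzmb was found in 6 of 9 Cma1-positive cells and in 39 of 654 without Cma1. Every one of the 45 Gzmb-positive and 9 Cma1-positive Fcer1a-positive cells also held Cpa3.

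Gata2-positive cells were far more numerous, at 3327 of 7645 (43.5%), with a median depth of 14435 UMIs against 20967 in Gata2-negative cells. The 5 measured proteases were all at least 4-fold higher in them, where 5.93% of 13477 genes passed that limit. Prss34 was at 1733 against 9.05 CPM (191-fold, 179 to 205), Mcpt8 at 999.8 against 20.4 CPM (49.0-fold, 46.8 to 51.3) and Cpa3 at 336 against 16.5 CPM (20.3-fold, 19.3 to 21.4). Gzmb was at 5.51 against 0.0848 CPM (65.0-fold, 32.6 to 152), and 22.6-fold without its 10 highest cells. With thinned cells Prss34 was 57.9-fold and Gzmb 206-fold. All 96 Cma1 UMIs were in Gata2-positive cells, at least 52.5-fold higher when set against 3 UMIs in the Gata2-negative group. Under the stricter cell filter this bound was 19.8-fold.

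These folds came largely from the 583 cells that had both Gata2 and Fcer1a. Among Fcer1a-negative cells, 2744 Gata2-positive cells were set against 4238 Gata2-negative ones, and 2 of the 4 measured members, Cpa3 and Gzmb, were at least 4-fold higher, where 5.72% of 13346 genes were. Prss34 was at 8.73 against 7.63 CPM (1.14-fold, 1.01 to 1.29) and Mcpt8 at 17.0 against 19.2 CPM (0.888-fold, 0.817 to 0.965). Cpa3 was at 66.9 against 15.2 CPM (4.41-fold, 4.14 to 4.69). Gzmb was at 0.970 CPM from 13 cells against 0.0865 CPM from 8 cells (11.2-fold, 5.25 to 27.5). Of the 55 Gzmb UMIs in Fcer1a-negative cells, 36 were in 6 cells of the basophil or mast cell-like class. All 48 Gzmb-positive cells of that class, with or without Fcer1a, had Gata2. The Gzmb fold therefore rested largely on these 6 cells. Cpa3 thus stood above Prss34 and Mcpt8. Over all alternatives Cpa3 ranged from 2.59-fold to 5.01-fold, Prss34 from 0.974-fold to 2.11-fold and Mcpt8 from 0.757-fold to 1.01-fold. The lowest Cpa3 and the highest Prss34 value came from the same setting, thinning, where the folds lay close.

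The median gene was itself 1.17-fold higher (log2 0.23) in Gata2-positive cells of this comparison. Relative to it Cpa3 was 3.75-fold, Gzmb 9.55-fold, Prss34 0.974-fold and Mcpt8 0.757-fold. Thinning gate and levels to 5000 UMIs gave Cpa3 2.59-fold, Gzmb 97.4-fold, Prss34 2.11-fold and Mcpt8 1.01-fold, so that Cpa3 was below 4-fold under both. Prss34 was below 1 only under division by the median gene, and Mcpt8 above 1 only with thinning, which changes gate and levels at once. Of 652 thinned Fcer1a-positive cells, 502 kept an Fcer1a UMI. The others entered the thinned Fcer1a-negative group, so that group differed from the one used above.

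Across Gata2 amounts in Fcer1a-negative cells, Cpa3 was at 53.4 CPM with 1 Gata2 UMI, 73.7 with 2 to 4 and 78.2 with 5 or more. Prss34 stayed between 8.45 and 9.25 CPM. Mcpt8 went the other way, from 20.9 to 18.7 and 7.17 CPM.

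Within Fcer1a-positive cells, the 583 with Gata2 were set against the 80 without, whose median depth was 22082.5 UMIs. All 5 measured members were at least 4-fold higher with Gata2, where 3.58% of 9622 genes were. Prss34 was at 10979.5 against 80.6 CPM, Mcpt8 at 6268 against 82.8 CPM and Cpa3 at 1781 against 85.0 CPM. Gzmb and Cma1 had no UMI in the 80 cells. Among Gata2-positive cells, in turn, those with Fcer1a had all 5 at least 4-fold higher, where 1.51% of 12411 genes were.

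**Figure D4:**
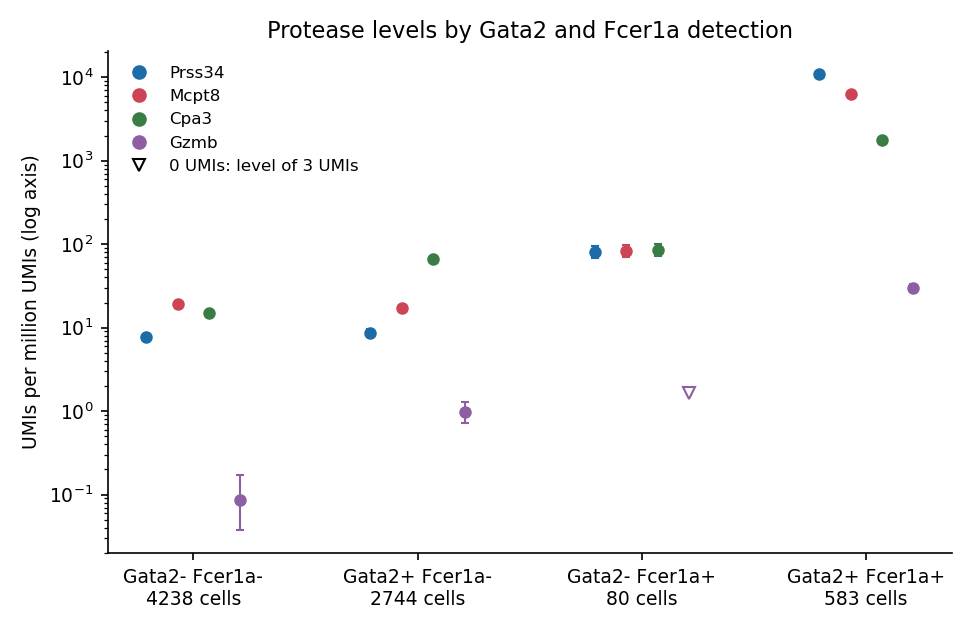
Level of 4 proteases (CPM, vertical log axis) in cells divided by detection of Gata2 and Fcer1a (horizontal axis). Points are summed levels with exact 95% Poisson intervals, the open triangle is the level of 3 UMIs where none was found, and Prss34 goes from 8.73 in Gata2+ Fcer1a- cells to 10979.5 in Gata2+ Fcer1a+ cells.

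Cells were clustered on genes other than the 6 members, Fcer1a and Gata2, and clusters were named from marker lists. The levels by class are a description, since genes that vary with the members stayed in. The basophil or mast cell-like class, led by Ms4a2, Cd200r3 and Cyp11a1, had 408 cells (5.34%) with a median depth of 12236.5 UMIs, and 392 of them had Fcer1a and 407 had Gata2. It held 94.2% of Prss34 UMIs, 90.7% of Mcpt8, 90.2% of Gzmb, 82.3% of Cma1 and 72.0% of Cpa3. Prss34 was at 17047 CPM there, Mcpt8 at 9704 and Cpa3 at 2709, and 99.8% of the class had Cpa3.

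Mast cell genes were measured in part. Of the 10 listed, 6 were below 50 UMIs: Tpsab1, Mcpt9 and Mrgprb1 had 0 UMIs, Mcpt4 and Mrgprb2 1 each and Rgs13 3. The other 4 were measured, and of these Slc45a3, a solute carrier, was at 25.6 CPM in Fcer1a-positive and 2.91 CPM in Fcer1a-negative cells, Itgb7, an integrin, at 60.7 and 34.9 CPM, and Kit at 89.0 and 88.0 CPM. Of the mast cell proteases among the members, Tpsb2 had 0 UMIs and Cma1 the 96 UMIs described above. Ms4a2 and Cd200r3, which lead the class, are known from both cell types.

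Of the other classes, the 44 eosinophil-like cells came next, with Cpa3 at 924 CPM, Mcpt8 at 552 and Prss34 at 435 CPM. In the 23 of them without Fcer1a, Prss34 dropped to 58.6 CPM from 19 UMIs, whereas Mcpt8 was at 512 CPM and Cpa3 at 968 CPM. These cells therefore held Mcpt8 and Cpa3 with little Prss34.

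**Figure D5:**
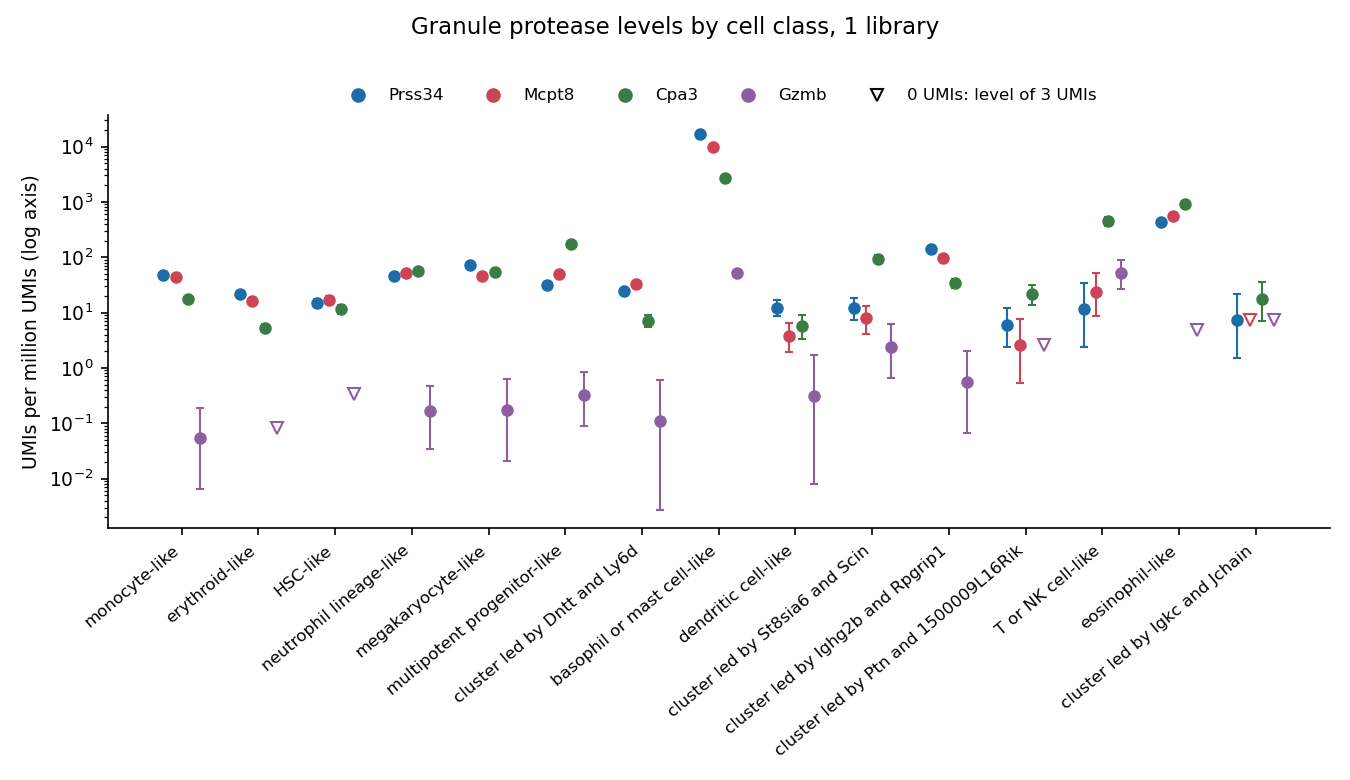
Level of 4 proteases (CPM, vertical log axis) in the 15 classes and unnamed clusters (horizontal axis), with exact 95% Poisson intervals, and open triangles for the level of 3 UMIs where none was found. The basophil or mast cell-like class has the highest Prss34, Mcpt8 and Cpa3, and Cpa3 also reaches 174 in multipotent progenitor-like and 924 in eosinophil-like cells.

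In Fcer1a-negative cells of the 6 largest classes Prss34 varied little, from 6.52 CPM in neutrophil lineage-like to 9.76 CPM in multipotent progenitor-like cells. Its thinned shares of cells were 3.07% to 4.14% in these 6, the erythroid-like cells among them at 3.44%. Outside the 6 largest classes it was at 12.2 CPM (thinned share 6.77%, 3.99 to 10.6) in dendritic cell-like cells and at 12.5 CPM (7.47%, 4.04 to 12.4) in the unnamed cluster led by St8sia6 and Scin. The part of free RNA in these low levels was not tested. Mcpt8 was different: it was at 40.4 CPM in multipotent progenitor-like, 32.9 CPM in neutrophil lineage-like and 21.8 CPM in monocyte-like cells, but at 6.15 CPM in erythroid-like, 6.07 CPM in megakaryocyte-like and 6.41 CPM in HSC-like cells. The thinned shares of cells with Mcpt8 were 13.9%, 13.7% and 7.15% in the first 3 and 3.08% in erythroid-like cells.

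The ratio of Mcpt8 to Prss34 UMIs differed between classes. It was 0.569 (0.563 to 0.575) in the basophil or mast cell-like class, and in Fcer1a-negative cells 0.763 (0.638 to 0.912) in erythroid-like, 3.02 (2.63 to 3.49) in monocyte-like, 4.14 (3.38 to 5.10) in multipotent progenitor-like and 5.04 (4.13 to 6.20) in neutrophil lineage-like cells. The interval of the erythroid-like cells did not overlap those of the other 3 classes without Fcer1a. Nor did it overlap that of the basophil or mast cell-like class, which was taken over all its cells.

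Cpa3 reached further into the progenitors. In Fcer1a-negative cells it was at 164 CPM in multipotent progenitor-like cells (27.4% of cells thinned), 50.5 CPM in neutrophil lineage-like, 33.6 CPM in megakaryocyte-like, 12.9 CPM in monocyte-like, 8.66 CPM in HSC-like and 2.71 CPM in erythroid-like cells (1.36% of cells thinned). An unnamed cluster led by St8sia6 and Scin, of which 93.6% of cells had Gata2, was at 89.7 CPM. Among Fcer1a-negative cells, the fold of Cpa3 with Gata2 over without it was 4.13 (3.70 to 4.62) in multipotent progenitor-like, 5.49 (4.80 to 6.27) in neutrophil lineage-like, 4.67 (3.88 to 5.63) in monocyte-like and 3.65 (2.37 to 5.71) in erythroid-like cells. In megakaryocyte-like cells, 95.1% of which had Gata2, it was 0.799 (0.503 to 1.34).

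HSC-like cells, 87.2% of which had Gata2, stood low for all 3 in the absence of Fcer1a, with Prss34 at 8.21 CPM, Mcpt8 at 6.41 CPM and Cpa3 at 8.66 CPM, and no UMI of Gzmb or Cma1. Erythroid-like cells without Fcer1a were at 8.06, 6.15 and 2.71 CPM for the same 3 genes. Gzmb was found in no HSC-like or erythroid-like cell.

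Over 7546 thinned cells, Pearson's r on log2(1 + UMIs) was 0.94 between Prss34 and Mcpt8, 0.79 between Prss34 and Cpa3, and 0.80 between Mcpt8 and Cpa3. Among genes that are no members, those closest to Prss34 were Fcer1a (0.90), Ms4a2 (0.81) and Cyp11a1, an enzyme of steroid synthesis (0.76). Those closest to Mcpt8 were again Fcer1a (0.90), Ms4a2 (0.82) and Cyp11a1 (0.75). With the members left out likewise, those closest to Cpa3 were Fcer1a (0.82), Ms4a2 (0.80) and Rnase12, a ribonuclease family gene (0.72). Gzmb, with 44 thinned cells, and Cma1, with 7, were below the limit of 50 cells set for this measure.

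Other genes of the pathway were read against the same background of 1.44% in the Fcer1a comparison. Of 8 genes for the IgE receptor and cytokine receptors, 6 were at least 4-fold higher in Fcer1a-positive cells, among them Cd200r3 (87.7 against 0.121 CPM) and Ms4a2 (480 against 2.77 CPM). Of 9 measured mediator genes 6 passed, with Hdc at 252 against 25.1 CPM, Alox5, which starts leukotriene synthesis, at 115 against 1.82 CPM, and Il6, a cytokine, at 38.1 against 0.298 CPM. Il4, the cytokine that basophils are known for, was at 17.7 against 0.780 CPM.

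Granule and protease genes beside the members followed. Of 11 granule storage and activation genes, 1 passed, Cd63, a granule membrane protein, at 1170 against 212 CPM, while Srgn, the granule proteoglycan, was 2.09-fold (2.06 to 2.12) and Ctsc, which activates granule serine proteases, 1.03-fold (0.933 to 1.13). None of 7 measured protease inhibitors passed. Of 2 measured neighbours in the tryptase locus 1 passed, Prss28, a serine protease gene, with 61 UMIs against 3 (264-fold, 86.0 to 1313). The other, Prss30, was at least 4-fold lower in Fcer1a-positive cells. The 1 measured neighbour in the chymase locus, Ctsg, a neutrophil granule protease, was 1.22-fold.

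All 5 measured eosinophil granule genes passed, with Prg2 at 1230 against 59.4 CPM, but from few cells. Prg2 was found in 62 of the 663 Fcer1a-positive cells (9.35%, median 1 UMI where found, maximum 1963) and in 7.02% of Fcer1a-negative cells, and 21 Fcer1a-positive cells were eosinophil-like. None of 5 neutrophil primary granule genes passed. Of these, 2 were above 1 and 3 below 1 by their intervals (median 0.862-fold), Elane among the latter at 1199 against 3191 CPM. Of 4 measured mast cell genes 1 passed, Slc45a3, and Mitf, a transcription factor of mast cells, was at 3.03 against 3.41 CPM. Of the 10 transcription factors Gata2, a gate gene left out of the count, was at 433 against 62.7 CPM, and none of the other 9 passed, the nearest being Cebpa at 3.86-fold (3.64 to 4.08), and none of 11 markers of other lineages did.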

How the data were processed

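The authors made the deposited UMI counts, whole numbers per gene and barcode that are not normalized, from a 10x Chromium library, using Cell Ranger 6.0.2 on mm10. They were deposited before the study's cell filter. Brd9-deleted cells were not used here.

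The study's filter was applied (UMIs between 1000 and 50000, genes between 1000 and 6500, mitochondrial share below 7%), which left 1592 to 49991 UMIs per cell. Doublets were called by Scrublet (scanpy 1.11.5, expected rate 6%), and the 268 calls were kept. The stricter filter required 5000 UMIs and a mitochondrial share under 5%. Cells were clustered with Seurat 5.3.0 and sctransform 0.4.2 in R 4.3.3 (50 components, Louvain resolution 0.8), leaving out 8 genes (the members, Fcer1a and Gata2). The 18 clusters were named from 11 marker lists by a rule set after the clusters were seen.

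Levels are summed UMIs per 1000000 (CPM) with exact Poisson intervals, folds have exact conditional binomial intervals, and shares of cells have exact Clopper-Pearson intervals, all at 95% from scipy 1.17.1. Library preparation and sampling of mice are not covered by them. For a count of 0, the level of 3 UMIs is given. A gene was measured with at least 50 UMIs over both groups. Thinning drew 5000 UMIs per cell without replacement and left out 99 shallower cells. The fold and likeness steps were tested on simulated data. The genes named are the members, Fcer1a, Gata2, 11 lists beside the members, and for each member the 3 genes with the highest correlation, plus the leading genes of clusters. Members and lists were chosen with earlier results of these data known. Coordinates are from GENCODE M21.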

Additional observations from a re-analysis of the deposited data

Results flagged for a closer look

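Barcodes removed by the cell filter entered no comparison, and 4 of the 6 proteases had UMIs in them above the level that a count of 0 allows. Over the 1172 removed barcodes, which had a median of 2951.5 UMIs, Prss34 was at 126 CPM (121 to 132), Mcpt8 at 83.5 CPM (79.0 to 88.1), Cpa3 at 31.2 CPM (28.4 to 34.1) and Gzmb at 0.321 CPM (0.104 to 0.748, from 5 UMIs). Cma1 and Tpsb2 had 0 UMIs there. Fcer1a was found in 38 of these barcodes, and of those 25 had Prss34, 24 had Mcpt8 and 32 had Cpa3.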

How the results depend on the processing

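The number of proteases at least 4-fold higher was 5 in Fcer1a-positive and 5 in Gata2-positive cells under 7 alternatives each. These were no cell filter, a stricter one, doublet calls removed, gates at 2 UMIs, thinning, other totals, and folds divided by the median gene. The number was 4 without the 10 cells with most UMIs, where Cma1 had too few left. The minimum of 50 UMIs for a measured gene was not applied to the counts under the alternatives. Under the stricter filter Cma1 was counted at 97.8-fold with Fcer1a and at 19.8-fold with Gata2, the latter against the level of 3 UMIs. Whether it kept 50 UMIs there is not given. Among Fcer1a-negative cells the count of 2 went to 1 with thinned cells and to 1 with folds divided by the median. With gates at 2 UMIs it went to 3, by the addition of Cma1 at 4.13-fold. Cma1 had 4 UMIs at the main gate, set against the level of 3 UMIs, and was not measured in this comparison. The 3 is therefore not comparable with the 2. Prss34 turned to 0.974-fold under division by the median and Mcpt8 to 1.01-fold with thinned cells, and the cause was not tested. The share with at least 2 proteases was 83.5% with Fcer1a gated at 2 UMIs, 75.1% with gate and levels thinned, and 61.8% with proteases counted from 2 UMIs. The share of protease UMIs in the basophil or mast cell-like class was 90.5%, against 90.8% with 30 components, 93.2% with doublets removed before clustering and 89.3% with log-normalised counts. Genes at least 4-fold higher numbered 194 with Fcer1a and 799 with Gata2, 320 and 1335 from 10 UMIs, and 728 and 1615 with no minimum. Of 116 single-gene folds under 8 alternatives, 71 stayed within the interval of the reported fold, 43 moved outside it on the same side of 1, and 2 changed side. With Gata2, Prss34 ranged from 57.9-fold (thinned) to 282-fold, and among Fcer1a-negative cells Gzmb from 6.68-fold to 97.4-fold (thinned). No paired analysis was possible because there is 1 library. Depth limits what can be said of Cma1, Gzmb and Tpsb2.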

Other observations

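Fcer1a was found outside the basophil or mast cell-like class as well. In 91 of 710 megakaryocyte-like cells (12.8%) at least 1 UMI was counted, at 23.7 CPM (21.0 to 26.6), and 6.37% of the thinned cells held it, against 0.706% of thinned erythroid-like cells. Doublet calls made up 0.845% of the megakaryocyte-like class. Of the cells with Cpa3 but neither Mcpt8 nor Prss34, 31 of 94 were megakaryocyte-like and 37 were basophil or mast cell-like.

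A cell of the T or NK cell-like class, a class of 44 cells with a median of 3475 UMIs, held 16 Cma1, 11 Gzmb and 47 Cpa3 UMIs with 6 Gata2 and 8 Kit UMIs, and it held all of the Cma1 UMIs of that class. Its Cpa3 made up 47 of the 114 UMIs of the class.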
